A study of Rattus norvegicus with 4 samples.

Results

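Genes of neutrophil granules and cytosol, 9 in number, were followed in injured and sham-operated rat muscle: S100a8, S100a9, Itgam, Itgb2, Cebpe, Slpi, Lcn2, Camp and Mpo. They were chosen by name, as the 9 of 35562 gene names on the array whose name in the file, or whose older symbol, was one of these, and they were read by 13 of 41012 probes. The rats were male Sprague-Dawley, and the muscle was the gracilis, which draws the thigh inward. Injured muscle underwent 4 h of ischemia and then 1, 3, 7 or 14 days of reperfusion, and the control was a sham-operated gracilis. Each time was 1 Agilent 2-colour array carrying 1 injured sample (Cy5) and 1 sham sample (Cy3), with no dye swap. No day therefore has a replicate, a probe that takes up one dye better cannot be told apart from a difference between the muscles, and the number of arrays limits the precision. The labels do not give the age of the rats or say whether one sham RNA was used on every array, and no unoperated muscle was measured.

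Neutrophils are short-lived phagocytes that leave the blood early after tissue injury. S100a8 and S100a9 pair as calprotectin, which fills much of the neutrophil cytosol. Itgam and Itgb2 are the chains of the integrin Mac-1 (CD11b and CD18), with which neutrophils and monocytes hold to activated endothelium. Granule proteins are made in the bone marrow in stages: Mpo, myeloperoxidase of azurophil granules, comes before Lcn2 and Camp of specific granules, and Cebpe is the transcription factor needed for specific granules. Granule protein transcripts, Mpo's above all, are largely shut off before a neutrophil enters the blood. Slpi, a secreted inhibitor of neutrophil proteases, is also made by epithelia and macrophages.

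The injured channel was well above background for 64.4% to 68.7% of probes and the sham channel for 34.7% to 47.3%. Probes printed 10 times on an array had a median SD of the log2 ratio from 0.0374 to 0.0738, which is spot noise and not the spread between animals. Day 14 was the only array of its scan session, the other days having shared one, so session and day 14 cannot be told apart. The labelled tissue matched its markers: all 11 muscle fibre markers on the array, such as the creatine kinase Ckm and the actin Acta1, were well above background in both channels of all 4 arrays. In bulk tissue, fewer cells of a type and less RNA per cell cannot be told apart.

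The probes that carried the S100a8, S100a9 and Camp signals are shown because the probes named for S100a8 and for Camp did not lie on one strand. Positions are those of the files, in the rat build rn4, and the 60 bases are printed 5′ to 3′. The S100a8 probe A_44_P1055780 lay at chr2:182962328-182962387 on the plus strand. A further S100a8 probe, A_44_P674708, designed from an expressed sequence tag, lay beside it at chr2:182962043-182962102 on the minus strand. S100a9 was read by A_44_P353618 at chr2:182987647-182987706 on the minus strand, which is the strand of the gene. Camp was read by A_44_P1048474 at chr8:114214987-114215046 on the minus strand, the strand of the gene. Its other probe, A_44_P828591 at chr8:114216548-114216607, lay on the plus strand.
S100a8 A_44_P1055780: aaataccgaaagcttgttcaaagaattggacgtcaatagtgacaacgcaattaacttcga
S100a8 A_44_P674708: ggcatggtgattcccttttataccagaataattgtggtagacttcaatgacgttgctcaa
S100a9 A_44_P353618: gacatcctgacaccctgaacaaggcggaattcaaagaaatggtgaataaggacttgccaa
Camp A_44_P1048474: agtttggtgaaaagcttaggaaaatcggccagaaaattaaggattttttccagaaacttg
Camp A_44_P828591: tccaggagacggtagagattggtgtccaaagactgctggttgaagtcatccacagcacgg
Among 8333 probes named by a RefSeq accession, 95.2% lay on the strand that the RefSeq annotation (GRCr8) gives their gene, and among 517 probes of tags and cDNA clones 81.8% did. Exon and UTR positions in rn4 were not used here.

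After 1 day of reperfusion the neutrophil genes were high in injured muscle. Of the 9 members 6 were at least 2-fold higher than sham and 0 were lower, against 1.25% of all 22884 genes measured that were higher and 4.81% that were lower. The median log2 ratio of the members was 1.39, beside 0.02 for all genes. The 6 were the integrin chain Itgam (6.73-fold), the calprotectin subunits S100a9 (6.13-fold) and S100a8 (5.67-fold), the integrin chain Itgb2 (2.76-fold), Cebpe (2.61-fold) and Slpi (2.39-fold). Camp lay just inside the threshold at 0.99 (1.99-fold) and Lcn2 at 0.76. Mpo was at -0.13 with a sham signal not well above background. The count was 6 to 8 under all other settings run, but the sizes moved. Median centring put Itgam and S100a9 at a log2 ratio of 3.86, S100a8 at 3.77, Slpi at 2.79, Itgb2 at 2.77 and Cebpe at 2.29. The median of the 3 S100a8 probes was 1.36. This is the value of A_44_P674704, which lay on the strand opposite to the main probe and had a sham channel not well above background. The deposited ratios of Itgam and Cebpe were 3.16 and 2.02. With 1 array there was no test of the day, and 11 of 11 muscle fibre markers were lower on the same array (median -3.22); the part of that loss in the ratios of other genes was not tested.

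By day 3 the set had divided. Of the 9 members 1 was higher (2.48% of all genes) and 1 lower (3.84%), with a median of -0.17 beside 0.03 for all genes. Itgam was still 4.06-fold higher, whereas Slpi was 4.41-fold lower. S100a8 at -0.20, S100a9 at -0.40 and Cebpe at 0.11 were within 2-fold of sham. Muscle fibre markers were still lower in 11 of 11 cases (median -4.24). Under median centring in place of loess, which moved the median of all genes to 0.37, 0.29, 0.27 and 0.27 on days 1, 3, 7 and 14, 3 members were higher and S100a8 (0.72) and S100a9 (0.51) lay above sham.

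On days 7 and 14 the calprotectin subunits lay below sham. On day 7, 1 member was higher (Itgam, 2.53-fold, beside 3.11% of all genes) and 3 were lower (beside 1.22%): S100a8 (3.19-fold), S100a9 (2.30-fold) and Slpi (2.19-fold). On day 14, 0 members were higher (beside 3.15%) and 2 were lower (beside 1.57%), S100a8 at 7.09-fold and S100a9 at 5.93-fold. The members' medians were -0.49 and -0.81. For all genes the medians were -0.03 and 0.04 with dim channels raised to the lowest signal that passed the background flag, as in the counts. Without that step they were 0.04 and 0.05. Of the 20474 genes measured on every array, 41 (0.2%) were at least 2-fold higher on day 1 and at least 2-fold lower on day 14. S100a8 and S100a9 were among these 41. This pattern was not among the planned comparisons, so the count is a description. The deposited ratios, which differ in background and dye correction, had 5 members lower on day 7 and 6 on day 14. On day 14 they put Camp at -2.65, Cebpe at -1.98 and Itgam at -1.92. Median centring had 2 higher and 1 lower on day 7.

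**Figure D1:**
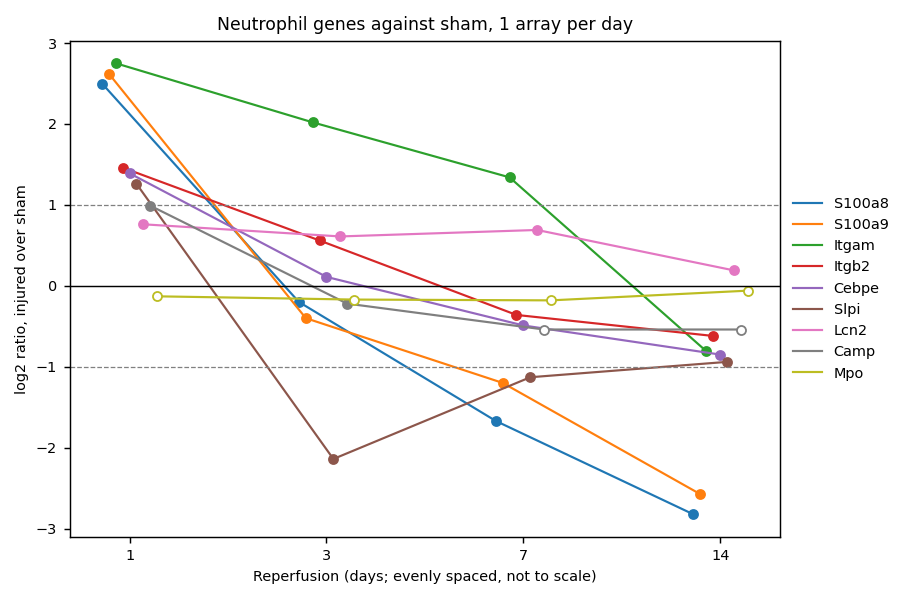
Log2 ratio of injured to sham muscle (vertical axis) on each day of reperfusion (horizontal axis, evenly spaced) for the 9 genes, 1 array per day, with no error bar because there is no replicate. Filled points had both channels well above background, open points (Mpo on every day, Camp on days 7 and 14) had 1 channel that was not, and dashed lines mark 2-fold. S100a8 and S100a9 run from 2.50 and 2.62 on day 1 to -2.82 and -2.57 on day 14, Itgam stays above 2-fold through day 7, and Slpi is lowest on day 3.

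S100a8 had the widest span of the set in injured muscle. Its mean spot brightness in the injured channel was 11354.8 on day 1, 1541.7 on day 3, 443.3 on day 7 and 154.4 on day 14. In the sham channel it was 696.1, 780.7, 719.0 and 637.2, where the median negative control spot ranged from 56.2 to 67.4. S100a8 signal was thus present in sham muscle on all 4 arrays, below the injured channel on days 1 and 3 in brightness and above it on days 7 and 14. After dye normalization the log2 level was 12.45, 9.93, 8.49 and 6.86 in injured muscle, a range of 5.59 (48.2-fold). The sham level was 9.98 ± 0.23 (SD over 4 sham channels) with a range of 0.49. The steps between neighbouring days in the injured channel were at least as wide as -1.44, from day 3 to day 7. They are set beside the sham range here and below as a description: if one sham RNA was used on every array, that range holds technical spread only and says nothing of the spread between animals. The log2 ratios were 2.50, -0.20, -1.67 and -2.82.

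S100a9, the partner subunit, followed nearly the same course. Its injured brightness was 9679.1, 1231.0, 272.7 and 139.0 on days 1, 3, 7 and 14. Its sham brightness was 557.6, 717.6, 319.3 and 478.2. The injured log2 level had a range of 5.56 (47.2-fold) and the sham level was 9.46 ± 0.46 (SD over 4 sham channels) with a range of 1.05. The narrowest injured step, -1.07 from day 7 to day 14, was about as wide as the sham range. The log2 ratios were 2.62, -0.40, -1.20 and -2.57. With the 4 sham channels averaged as the reference, S100a9 on day 3 changed sign to 0.14.

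The S100a8 probes on the other strand were far dimmer. A_44_P674704 and A_44_P674708 had injured brightness of 360.4 and 295.1 on day 1, beside 11354.8 for A_44_P1055780. In the sham channel neither was well above background on any array. Their day 1 ratios were 1.36 and 1.04 (2.56-fold and 2.05-fold higher). The dim sham levels already lay above the weakest sham signal that passed the background flag and were used as they were. These folds are therefore estimates and not minima. On day 3 they were at 0.07 and -0.13 and on day 7 at -0.18 and -0.27, and on day 14 both channels were dim. Camp's opposite-strand probe A_44_P828591 was not well above background in either channel on any day.

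**Figure D2:**
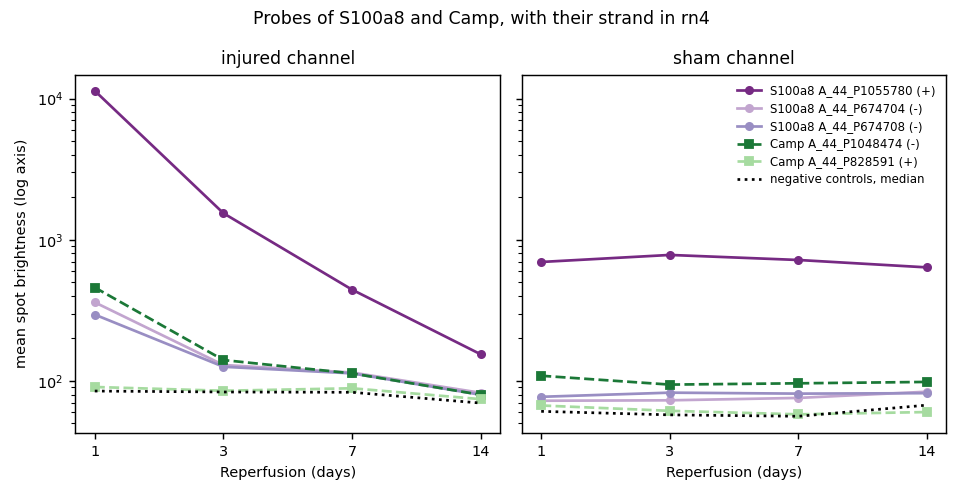
Mean spot brightness before normalization (vertical log axis) of the 3 probes named S100a8 and the 2 named Camp on each day (horizontal axis, evenly spaced), in injured muscle on the left and sham on the right, 1 array per day, with each probe's rn4 strand in the key and the median negative control spot as a dotted line. The plus-strand S100a8 probe spans 11354.8 to 154.4 in injured muscle and stays between 637.2 and 780.7 in sham, while the minus-strand probes start at 360.4 and 295.1 and the plus-strand Camp probe lies near the controls.

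Both chains of Mac-1 were highest on day 1. Itgam, the CD11b chain, had injured brightness of 4027.0, 1389.9, 659.6 and 111.1 on days 1, 3, 7 and 14, and sham brightness of 226.9, 156.2, 135.1 and 136.9. Its log2 ratios were 2.75, 2.02, 1.34 and -0.81, so it was above sham on the first 3 arrays and below on the last. The sham level was 7.79 ± 0.41 (SD over 4 sham channels), and of the injured steps only that from day 3 to day 7 (-0.74) was within the sham range of 1.01. Itgb2, the CD18 chain shared by all leukocyte integrins of its class, had injured brightness of 9838.6, 2819.2, 566.5 and 1131.0. Its sham brightness of 1213.8, 832.1, 376.2 and 1014.0 was also lowest on day 7. The Itgb2 ratios were 1.46, 0.56, -0.36 and -0.62. Its sham level of 10.18 ± 0.68 (SD over 4 sham channels) had the widest range among the 9 members (1.58), and the injured steps from day 1 to day 3 (-1.45) and from day 7 to day 14 (0.93) were within it. Median centring put Itgb2 above sham on days 7 (0.29) and 14 (0.07).

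Cebpe, the granulocyte transcription factor, had an orderly course whose size depended on the processing. Its injured brightness was 910.2, 315.3, 196.4 and 108.9 on days 1, 3, 7 and 14 against 149.5, 143.6, 148.5 and 139.9 in sham. The sham channel was thus nearly flat, at a level of 7.57 ± 0.18 (SD over 4 sham channels). The ratios were 1.39, 0.11, -0.49 and -0.85, and each injured step was larger than the sham range of 0.40. The deposited ratios lay farther from sham, at 2.02, 0.20, -1.18 and -1.98. Cebpe transcripts were measurable in both muscles on all 4 arrays.

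Slpi, the protease inhibitor, was the brightest member and followed a different course. Its injured brightness was 54959.2, 4939.0, 8261.4 and 8113.5 on days 1, 3, 7 and 14 against 6679.5, 8670.8, 8372.6 and 8336.0 in sham. For this probe, the brightest of the gene, the injured channel was thus high on day 1 and lowest on day 3. Its sham level was 13.60 ± 0.19 (SD over 4 sham channels). The ratios were 1.26, -2.14, -1.13 and -0.94. The brightness of both channels was nearly equal on days 7 and 14, and there median centring gave -0.24 and -0.11 in place of the loess values. The other Slpi probe had injured levels of 12.65, 9.54, 9.25 and 10.39, lowest on day 7. Its sham levels were 11.37, 11.42, 10.09 and 11.01, also lowest on day 7. The ratios of that probe were 1.28, -1.87, -0.84 and -0.62. Probes for related sequences had the same order, with Slpil2, now listed as a pseudogene of Slpi, at 1.10, -1.18, -0.52 and -0.27, and RGD1563818, described as similar to the inhibitor, at 1.21, -1.53, -0.68 and -0.62. Such near copies may share signal, so the Slpi values are uncertain to that extent.

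The granule proteins proper were dim. Lcn2, the iron-siderophore-binding lipocalin of specific granules, had injured brightness of 520.0, 412.5, 436.5 and 255.4 on days 1, 3, 7 and 14 against 138.6, 132.5, 140.8 and 146.1 in sham. It was the member that stayed above sham on all 4 arrays, with ratios of 0.76, 0.61, 0.69 and 0.19, none of them 2-fold. Camp, the cathelicidin antimicrobial peptide, had injured brightness of 459.0, 140.6, 113.1 and 79.8 against 108.8, 94.2, 96.2 and 98.4 in sham. Its ratios were 0.99, -0.22, -0.54 and -0.54. Sham Camp was not well above background on day 7, and injured Camp was not on day 14. The day 14 ratio (1.45-fold lower) rests on that dim level and is an estimate, not a minimum. Mpo had injured brightness of 105.8, 101.5, 121.5 and 88.3 against 77.1, 72.8, 82.2 and 82.8 in sham. Sham Mpo was not well above background on any array, while injured Mpo was on all 4, at ratios of -0.13, -0.17, -0.18 and -0.06 for which no fold is given.

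Signal was already present in sham muscle for most of the set. In the sham channel 7 of the 9 members were well above background on all 4 arrays, Camp was on 3 and Mpo on 0. Over the 4 arrays the median gene had a sham range of 0.34 and an injured range of 0.64 on the log2 scale (20474 genes). The members' sham ranges lay between 0.29 (Lcn2) and 1.58 (Itgb2). Their injured ranges lay between 0.29 (Mpo) and 5.59 (S100a8), and 7 members were above 2. Camp, the narrowest of these 7 at 2.08, had a wider injured range than 93.4% of the 20474 genes. The injured range was wider than the sham range in 8 of the 9 members, Mpo being the exception at 0.29 against 0.33. The median range over all genes was also wider in the injured channel (0.64 against 0.34), so this count alone does not set the members apart.

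**Figure D3:**
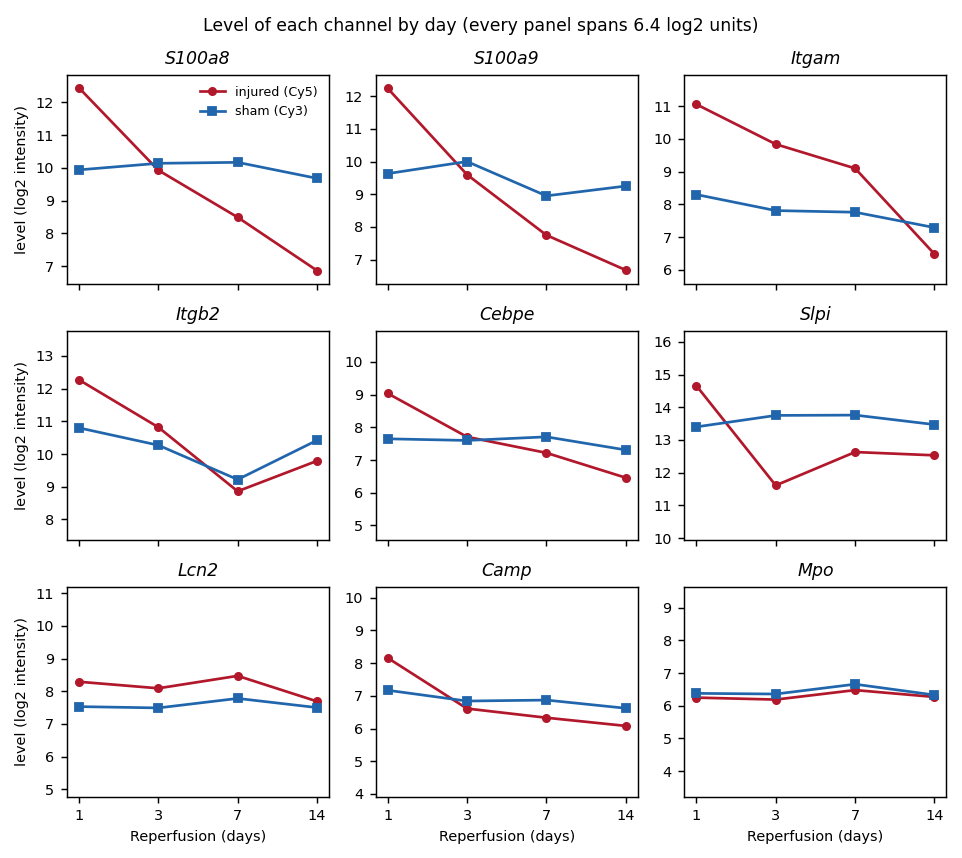
Level of each channel (vertical axis, log2 intensity after dye normalization, each panel spanning the same number of units) by day of reperfusion (horizontal axis, evenly spaced), 1 panel per gene, with 1 injured (red) and 1 sham (blue) value per day. The sham lines of S100a8, Cebpe, Slpi and Lcn2 span 0.49 or less while the injured lines cross them from above, except for Lcn2, which stays above sham.

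The course over time was tested across all genes, by a straight line of the log2 ratio against the log2 of the reperfusion day over the 4 arrays. After Benjamini-Hochberg adjustment limma called 0 of 20474 genes (0%), members included. At an unadjusted p under 0.05, limma gave a falling slope for 6 of the 9 members, against 7.82% of all genes, and a rising one for 0 members, against 11.5%. The slope of S100a8 was -1.39 per doubling of time (SE 0.08, 95% interval -1.62 to -1.17; limma, Benjamini-Hochberg adjusted p = 0.115). That of S100a9 was -1.31 (SE 0.13), of Itgam -0.87 (SE 0.18), of Cebpe -0.59 (SE 0.07), of Itgb2 -0.57 (SE 0.06) and of Camp -0.41 (SE 0.10), with limma's Benjamini-Hochberg adjusted p between 0.115 and 0.154. The slopes of Slpi (-0.51, SE 0.35), Lcn2 (-0.12, SE 0.06) and Mpo (0.01, SE 0.05) had intervals that included 0. Some slopes leaned on 1 array: Itgam was at -0.50 without day 14, Camp at -0.15 without day 1, and Slpi turned to 0.55 without day 1. Without the day 3 array limma called 632 genes, among them S100a8 and S100a9 (Benjamini-Hochberg adjusted p = 0.0282 each), Cebpe (0.0396) and Itgb2 (0.0428). The other 3 arrays left out in turn gave 0 calls.

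Fitted apart, the channels differed. Of the injured channel limma called 0 genes (0%) after Benjamini-Hochberg adjustment. At an unadjusted p under 0.05 the injured slope was falling in 6 members, against 6.49% of all genes, and rising in 0, against 7.47%. The S100a8 slope was -1.44 in injured muscle (95% interval -1.64 to -1.24) and -0.05 in sham (-0.23 to 0.13). The S100a9 slope was -1.48 in injured muscle (-1.71 to -1.25) and -0.17 in sham (-0.43 to 0.09). Of the sham channel limma also called 0 genes (0%), and at an unadjusted p under 0.05 it was falling in 1 member, against 1.44% of all genes, and rising in 0, against 0.376%. That member was Itgam (-0.24, 95% interval -0.38 to -0.10), for which limma's Benjamini-Hochberg adjusted p was 1.0 over the 4 arrays and 0.0128 without day 7.

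**Figure D4:**
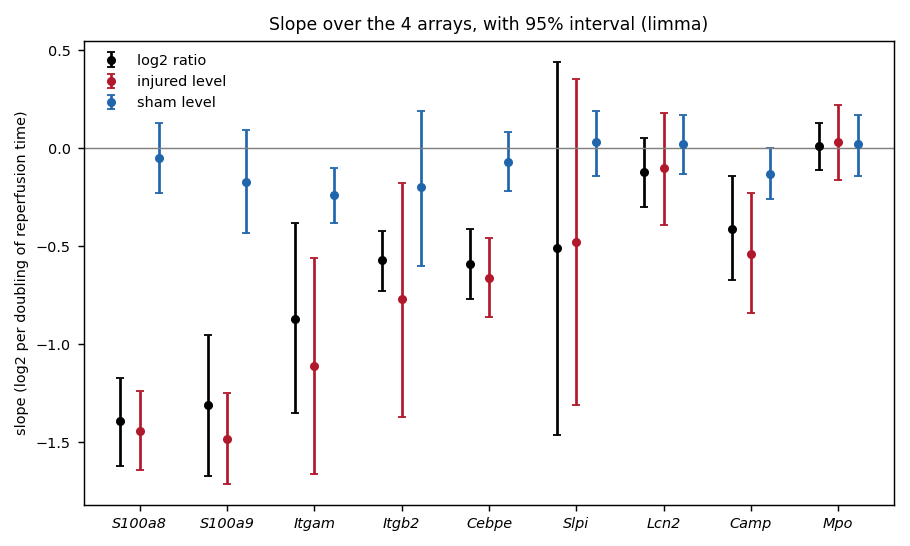
Slope per doubling of reperfusion time (vertical axis, log2 units) for each gene (horizontal axis), of the log2 ratio (black), the injured level (red) and the sham level (blue), with bars for limma's 95% interval over 4 arrays. Black and red points lie together well below 0 for S100a8 (-1.39 and -1.44) and S100a9 (-1.31 and -1.48), while their sham points are at -0.05 and -0.17.

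A constant offset from sham was tested as the mean ratio over the 4 arrays. limma called 38 of 20474 genes (0.186%) after Benjamini-Hochberg adjustment and 0 of the 9 members. At an unadjusted p under 0.05 limma had 1 member higher, against 11.8% of all genes, and 0 lower, against 9.97%. A count of 1 in 9 is about the share of all genes, so it does not set the members apart. That member was Lcn2, at 0.56 (95% interval 0.26 to 0.87; limma, Benjamini-Hochberg adjusted p = 0.126), above sham on 4 of 4 arrays. Under median centring Lcn2 was at 1.18 and passed limma's test (Benjamini-Hochberg adjusted p = 0.00861), as did 8523 genes in all. Itgam had a mean of 1.33 with an interval from -0.27 to 2.92.

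Other genes of neutrophil biology were taken from 6 lists, of whose 87 names 74 were on the array. On day 1, 16 of the 60 measured were at least 2-fold higher (beside 1.25% of all genes) and 2 lower (beside 4.81%), with a median of 0.67 beside 0.02 for all genes. On day 3, 3 of 58 were higher (beside 2.48%) and 4 lower (beside 3.84%), with a median of -0.10. On day 7, 4 of 58 were higher (beside 3.11%) and 6 lower (beside 1.22%), with a median of -0.10. On day 14, 2 of 59 were higher (beside 3.15%) and 10 lower (beside 1.57%), with a median of -0.26. No gene of these lists passed limma's test of the slope.

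Azurophil granule genes other than Mpo were near sham. Of 6 measured on day 1 only lysozyme, Lyz2, was higher (beside 1.25% of all genes), by at least 2.28-fold since its injured spot was saturated, and none was past 2-fold on days 3, 7 or 14. Lyz2 is also a macrophage gene. The serine protease Prtn3 (0.08, 0.16, 0.32 and 0.17), the bactericidal protein Bpi and the defensins Np4 and RatNP-3b stayed within 2-fold. From the list of specific and gelatinase granule genes 10 were measured on day 1, and 3 were higher (beside 1.25% of all genes). They were arginase, Arg1 (2.19, -0.59, -0.51 and -2.50 on days 1, 3, 7 and 14), haptoglobin, Hp (1.75, -0.44, -0.41 and -0.85), and the membrane protease Adam8 (1.24, 0.05, -1.30 and -1.70). The cell source of these 3 transcripts was not tested. Arg1 and Adam8 were also the 2 lower genes of 10 on day 14 (beside 1.57%). Ngp, Cd177 and Olfm4 were not well above background in either channel on any array, and lactoferrin, Ltf, and the collagenase Mmp8 were not in sham.

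Of 13 receptor and adhesion genes measured on day 1, 5 were higher (beside 1.25% of all genes) and 0 lower (beside 4.81%). They were the lectin receptor Siglec5 (1.38), the complement receptor C5ar1 (1.25), the leukotriene B4 receptor Ltb4r (1.17), the lectin Clec4e (1.14) and the decoy interleukin 1 receptor Il1r2 (1.04). C5ar1 then went to -0.26, -0.69 and -1.47. Trem1, an activating receptor of myeloid cells, was at 0.44 on day 1 and at -1.29, -1.26 and -1.52 later. Il1r2 was lower on day 3 (-1.21). The Fc receptor Fcgr3a, which macrophages and natural killer cells also carry, ran the other way, at 0.43, -0.98, 3.07 and 2.48.

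Of 11 NADPH oxidase and cytosol genes, 4 were higher on day 1 (beside 1.25% of all genes): the actin regulator Coro1a (1.52), the histone-citrullinating enzyme Padi4 (1.36), Anxa1 (1.10), which is annexin A1, and the oxidase subunit Cyba (1.04). Anxa1 was higher on day 3 as well (1.74). The oxidase subunit Ncf1 was lower on day 14 (-1.23), and histidine decarboxylase, Hdc, which mast cells also express, was lower on days 3 (-1.30) and 7 (-1.03). Of 5 transcription factors measured on day 1 none was higher and 1, Runx1, was lower (-1.01), beside 1.25% and 4.81% of all genes. Cebpd was higher on day 7 (1.02) and Cebpb lower on day 14 (-1.13).

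Attractants and vessel adhesion genes included some with the calprotectin course. Of 15 measured on day 1, 3 were higher (beside 1.25% of all genes), the cytokine Il1b (1.54), the chemokine Cxcl1 (1.49) and the platelet chemokine Pf4 (1.07). The endothelial adhesion molecule Vcam1 was the 1 lower gene (-1.05, beside 4.81%). Vcam1 was then higher on days 3, 7 and 14 (1.73, 2.10 and 1.58). On day 3 Sele, the endothelial selectin, was 2.35-fold higher than a sham channel not well above background, and Cxcl2 was lower (-1.23). On day 7 Ccl4 was higher (1.35). On day 14, 4 of 13 were lower (beside 1.57%): Cxcl2 (-2.30), Cxcl1 (-2.06), Cxcl3 (-1.64) and Pf4 (-1.37). Cxcl1, Cxcl3 and Pf4 were also the 3 lower genes of 13 on day 7, beside 1.22% of all genes (Cxcl1 at -1.47, Cxcl3 at -1.17 and Pf4 just at the threshold).

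The genes nearest in pattern to calprotectin were found by the Euclidean distance of the 4 log2 ratios to the mean of S100a8 and S100a9, among 10872 genes with a symbol. The 5 nearest were the monocyte chemokine Ccl2 (0.66), the stromelysin Mmp3 (1.04), Arg1 (1.06), Cxcl1 (1.30) and the chemokine Ccl7 (1.35). Ccl2 had ratios of 2.08, -0.13, -1.04 and -2.56, with its injured spot saturated on 1 array. Mmp3 had 1.89, -0.59, -2.01 and -2.22, and Ccl7 had 1.57, -0.33, -0.58 and -2.36. The other members were farther, Cebpe at 2.42 (rank 46), Itgb2 at 2.72 (rank 104), Camp at 2.82 (rank 138) and Slpi at 2.87 (rank 162). Mpo at 3.97 (rank 4043), Itgam at 4.09 (rank 5597) and Lcn2 at 4.11 (rank 5967) were farthest.

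Markers of other cell types that share these genes moved on the same arrays. Of 13 monocyte and macrophage markers 4 were higher (beside 1.25% of all genes) and 1 lower (beside 4.81%) on day 1, and 3 higher (2.48%) and 3 lower (3.84%) on day 3. On day 7, 5 were higher (3.11%) and 3 lower (1.22%), and on day 14, 3 were higher (3.15%) and 5 lower (1.57%). Their medians were 0.51, -0.07, -0.17 and -0.22, and all 13 were well above background in sham on all 4 arrays, at levels from 7.50 to 14.38. Cd14, the lipopolysaccharide co-receptor, ran at 1.13, -0.07, -0.49 and -1.30, whereas the complement gene C1qa ran at -1.01, 1.40, 3.55 and 2.91. Macrophages also carry members of the set, such as Itgam, Itgb2 and Slpi. The part of monocytes and macrophages in the members' ratios, those of S100a8 and S100a9 included, was not tested. Muscle fibre markers went from 11 of 11 lower on days 1 and 3 to 1 higher and 4 lower on day 7 and 5 higher and 2 lower on day 14. Of 5 fibroblast markers 0 were higher and 2 lower on day 1, and 4 were higher and 0 lower on day 3. On days 7 and 14, 3 were higher and 0 lower. The collagen-binding Lum was at 1.09, 2.75 and 1.96 on days 3, 7 and 14. Of 9 T, NK and B cell markers 4 were higher and 1 lower on days 7 and 14, the T cell receptor subunit Cd3g being at 2.89 and 3.44. The shares of all genes given above for each day apply to these counts too. The muscle fibre, fibroblast and lymphocyte markers moved on the arrays on which S100a8 and S100a9 were below sham, and their part in those ratios was not tested. Among eosinophil markers Prg2 was well above background in both channels on all 4 arrays and within 2-fold of sham. Ccr3 was well above background in the injured channel only, and Prg3, Epx and Il5ra were not on any array. On day 1, 1 of 4 measured was higher (beside 1.25% of all genes), Siglec5, which the receptor list also holds. Of the epithelial markers, which would mark another source of Slpi, Lcn2 and Camp, Krt14 was well above background in both channels on every array. Krt5 was so on 4 arrays in injured muscle and 3 in sham, Krt18 on 4 and 1, and Cdh1 on 3 and 0. Krt8, Krt19 and Epcam were not well above background in either channel, and none of the others was past 2-fold.

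The sequence before the start site is given for the 4 members at hand whose slopes were falling at an unadjusted p under 0.05 (limma), since factors of the C/EBP family, Cebpe among them, and PU.1 are known to act at myeloid promoters. RefSeq promoters (GRCr8) were at hand for 6 of the 9 members, and the 250 bases before the start were searched on both strands. The C/EBP pattern was TTNNGNAA (TTNCNNAA on the other strand), and a PU.1 pattern, GAGGAAG, was searched in the same way. The first was in 37.2% and the second in 10.2% of all 33469 promoters of that length. Capitals mark C/EBP matches. The S100a9 window is chr2:178490623-178490872 on the minus strand, that of Itgam chr1:192089342-192089591 on the plus strand, that of Cebpe chr15:32141477-32141726 on the minus strand, and that of Camp chr8:118721999-118722248 on the minus strand.
S100a9: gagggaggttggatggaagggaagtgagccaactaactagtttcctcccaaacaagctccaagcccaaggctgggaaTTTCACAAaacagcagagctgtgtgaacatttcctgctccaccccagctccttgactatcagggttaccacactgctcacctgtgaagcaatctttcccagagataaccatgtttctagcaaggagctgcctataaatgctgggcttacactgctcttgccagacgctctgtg
Itgam: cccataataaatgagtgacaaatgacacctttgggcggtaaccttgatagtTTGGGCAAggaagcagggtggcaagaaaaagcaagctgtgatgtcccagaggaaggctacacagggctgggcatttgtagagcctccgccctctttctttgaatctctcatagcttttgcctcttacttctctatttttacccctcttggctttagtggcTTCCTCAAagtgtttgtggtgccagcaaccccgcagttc
Cebpe: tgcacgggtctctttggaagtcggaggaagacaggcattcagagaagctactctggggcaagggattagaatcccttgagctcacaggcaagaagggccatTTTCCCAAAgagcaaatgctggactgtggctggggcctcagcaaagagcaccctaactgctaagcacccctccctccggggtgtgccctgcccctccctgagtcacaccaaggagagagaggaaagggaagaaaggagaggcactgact
Camp: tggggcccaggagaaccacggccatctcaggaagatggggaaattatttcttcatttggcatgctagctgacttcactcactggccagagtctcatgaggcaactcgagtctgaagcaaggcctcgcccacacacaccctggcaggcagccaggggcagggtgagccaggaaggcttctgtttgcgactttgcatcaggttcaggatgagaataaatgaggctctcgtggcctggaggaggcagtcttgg
S100a9 had 1 C/EBP match, 173 bases before the start, and no PU.1 match. Itgam had 2 C/EBP matches, 199 and 39 bases before the start, and 2 PU.1 matches, 151 and 40 bases before it, the last of which overlapped a C/EBP match. Cebpe had 2 overlapping C/EBP matches, 149 and 148 bases before the start, and 1 PU.1 match. Lcn2 had 1 C/EBP match, Mpo had 1 of each, and Camp had neither. With the C/EBP pattern in 37.2% of all promoters, these matches are a description of the letters only.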

How the data were processed

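RNA of injured and of sham-operated gracilis muscle was read on 4 arrays, labelled by in vitro transcription, per the labels' protocols. The deposited intensity values are each spot's mean brightness and local background, not normalized, per the file headers. The deposited log10 ratio (red over green) is background-subtracted and dye-normalized, per the file headers, by Feature Extraction (9.5.3 per the submitters' processing notes, 10.5.1.1 per the headers). The deposited value table holds log2 ratios, within 0.005 of the log10 ratios rescaled, with a median of 0 in every column. The deposited flags mark spots well above background or saturated; no member's spot was saturated.

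With R 4.3.3 and limma 3.58.1, background was corrected by normexp (offset 50), which shrinks ratios of dim spots, and each array was normalized by loess. Levels of single channels come from Aquantile normalization. Spots of 1 probe were averaged, and a gene's brightest probe stood for it. A gene was measured on a day if 1 channel was well above background. A dim channel that lay below the array's lowest signal that passed the background flag was raised to that signal. A fold with a dim channel is an estimate and not a strict bound. Names came from RefSeq (GRCr8): 10835 probes by accession, 1659 by symbol, 3542 by a symbol without a suffix, 3488 by an older symbol, 217 by the description, while 21271 kept the name in the file. Single days had no test. limma tested slope and mean over all genes with Benjamini-Hochberg adjustment at 0.05, with the spread around the line or between days as error, not that between animals. Named genes are the 9 members, genes of the lists past 2-fold on some day, and the 5 genes nearest calprotectin in pattern; other genes, such as dim ones, were picked with their values in view. The members and lists were chosen with earlier results of these data known. Alternatives tried were the deposited ratios, other background and dye corrections, filters, probe choices, sham references and thresholds, and each array left out.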

Additional observations from a re-analysis of the deposited data

Results flagged for a closer look

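S100a8 and S100a9 lay on opposite sides of sham on days 1 and 14. The day 14 log2 ratio minus the day 1 log2 ratio was -5.33 for S100a8 and -5.18 for S100a9. For Slpi the day 3 ratio minus the day 1 ratio was -3.40, from 1.26 to -2.14. Each day is 1 array, so these differences between days were not tested.

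The S100a8 probes on the strand opposite to the gene's main probe had an injured signal above background on day 1 and none above background in sham. Their day 1 log2 ratios were 1.36 for A_44_P674704 and 1.04 for A_44_P674708. The cause was not tested.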

How the results depend on the processing

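The count of members higher on day 1 stayed between 6 and 8 under every other setting run, and no ratio past 2-fold changed sign. Median centring gave 3 members higher on day 3 and 2 on day 7, and a 1.5-fold threshold gave 2 on each. Members lower on day 7 numbered 5 with the deposited ratios and with the deposited value table, and 1 with median centring and with the median of a gene's probes. With the median of the probes Slpi was at -0.99 and S100a8 at -0.27, the value of its opposite-strand probe A_44_P674708, whose sham channel was dim. Members lower on day 14 numbered 6 with the deposited ratios, the value table and a 1.5-fold threshold, and 5 with the averaged sham channels as the reference. Leaving out each array in turn, the slope of the ratio was called in 0 to 632 genes and in 0 to 4 members, the upper values without day 3. The sham slope was called in 0 to 127 genes and in 0 to 1 members, the upper values without day 7, and in 4 genes without day 3. The mean was called in 777 genes with the deposited ratios, 8523 with median centring (1 member, Lcn2), 18 with averaged shams and 25 with both channels above background. With an array left out it was called in 0 to 8 genes. Some slopes and means of members, none of them called, changed sign. Median centring turned the means of S100a8 (0.31), S100a9 (0.43), Slpi (0.35) and Camp (0.15), and the deposited ratios that of Cebpe (-0.24). With each array left out in turn, slopes of the ratio ran from -0.91 to 0.55 (Slpi) and from -0.02 to 0.05 (Mpo). Means ran from -1.57 to 0.21 (S100a8), -1.39 to 0.34 (S100a9), -0.14 to 0.55 (Itgb2), -0.41 to 0.34 (Cebpe) and -0.43 to 0.08 (Camp). Injured slopes ran from -0.78 to 0.43 (Slpi) and -0.17 to 0.06 (Lcn2). Sham slopes ran from -0.19 to 0.08 (S100a8), -0.56 to 0.03 (Itgb2), -0.12 to 0.02 (Cebpe), -0.12 to 0.13 (Slpi), -0.01 to 0.09 (Lcn2) and -0.01 to 0.10 (Mpo). Quantile normalization of the channel alone put the sham slope of S100a8 at 0.01. For these differences between settings the cause was not tested. Each log2 ratio sets the injured sample against the sham sample of the same array. No pairing of samples between days was possible, because each day is 1 array. Dim signal limits Mpo and Camp, whose sham spots were not well above background on 4 and 1 of the arrays.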
